A study of Mus musculus with 6 samples.

Results

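The SLC25 mitochondrial carriers are the gene family described here, in hearts of aged female mice after sham or TAC surgery. Its members were taken as every gene of the deposited expression table whose GRCm38 symbol starts with Slc25a, which gave 47 of 22298 genes. Heart RNA was sequenced from wild-type female mice aged 18 months, giving 3 sham and 3 TAC libraries. TAC commonly stands for transverse aortic constriction, in which the aortic arch is narrowed and the left ventricle works against a raised pressure. The labels do not say how long after surgery hearts were taken, which strain was used or whether each library is a separate animal, so p-values measure only the spread between these libraries. The labelled tissue was checked on 8 genes of heart muscle cells (Myh6, Tnnt2, Tnni3, Actc1, Myl2, Myl3, Ryr2 and Pln), and all 8 were detected in every library.

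Carriers of this family sit in the inner mitochondrial membrane and move one small molecule in exchange for another, or together with protons, between the cytosol and the matrix. The heart, which makes most of its ATP in mitochondria, depends on them to bring in ADP, phosphate and fuel and to send out ATP. A few members have other sites, among them Slc25a46 in the outer membrane and Slc25a17 in the peroxisome. The series title names GPR30, Trex1, NETs and heart failure. The question asked of the carriers was which of them differed in RNA level between sham and TAC hearts, substrate by substrate.

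No carrier passed the test, and most of those tested had a lower mean in TAC than in sham. Of the 47 members, 38 had enough counts to be tested. With edgeR's quasi-likelihood test none was higher and none lower at a threshold of 0.05 on the p adjusted over 13708 tested genes by the Benjamini-Hochberg method, where 1.12% of all tested genes were called higher and 0.54% lower. At an unadjusted p under 0.05, 5 carriers were higher and 9 lower, beside 16.3% and 9.26% of all tested genes. The log2 fold change was negative in 27 of the 38 carriers and 47.1% of all tested genes, and positive in 11 carriers and 52.9% of genes. Its median was -0.21 over the carriers and 0.03 over all tested genes, with a range among carriers from -1.37 (Slc25a34) to 0.71 (Slc25a25).

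Groups that do not overlap were also more often lower than higher. In 12 carriers each TAC value lay below each sham value, beside 13.1% of all tested genes. In 5 carriers each TAC value lay above, beside 18.4% of all tested genes. The 12 were Slc25a11, Slc25a13, Slc25a16, Slc25a22, Slc25a23, Slc25a26, Slc25a27, Slc25a29, Slc25a33, Slc25a34, Slc25a42 and Slc25a51. The 5 were Slc25a24, Slc25a25, Slc25a30, Slc25a32 and Slc25a37. These counts rest on CPM, the counts scaled to a common library size. On the deposited FPKM, which also divide by gene length, 13 of these 17 carriers again had no overlap, in the same direction, and Slc25a23, Slc25a30, Slc25a32 and Slc25a51 did overlap.

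**Figure D1:**
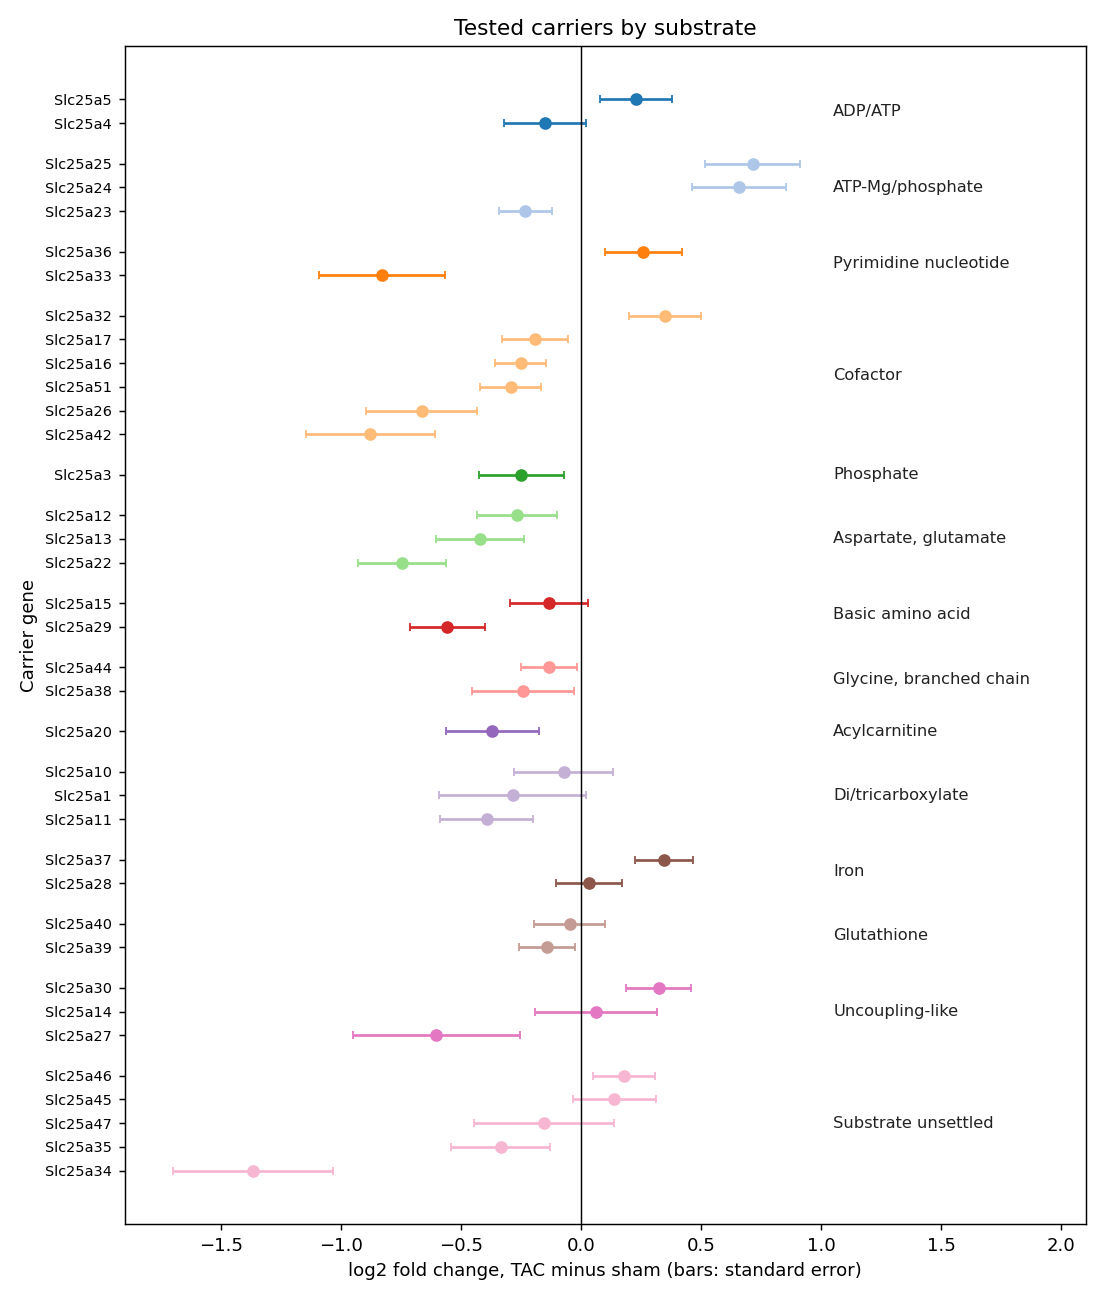
The log2 fold change of TAC against sham (horizontal axis, points) with its standard error (bars) is plotted for 37 of the 38 tested carriers, grouped by substrate (labels at the right). The amino acid carriers all lie left of 0, from -0.75 to -0.13, and the ATP-Mg/phosphate carriers Slc25a24 and Slc25a25 lie farthest to the right, at 0.66 and 0.71.

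Total carrier RNA was dominated by a few genes of ATP supply. On FPKM, the scale on which genes can be compared, Slc25a4 and Slc25a3 together held 71.3% to 73.3% of the family's summed FPKM in sham and 71.1% to 74.8% in TAC. Slc25a4, the ADP/ATP translocase of heart and muscle, was at 1723 ± 58.2 FPKM in sham (SD, n = 3) and Slc25a3, the phosphate carrier, at 1274 ± 76 FPKM. Slc25a11, the oxoglutarate carrier, followed at 280.5 ± 8.0 FPKM, Slc25a5, the second ADP/ATP translocase, at 216 ± 13.9 FPKM, and Slc25a20, the carnitine-acylcarnitine translocase, at 101 ± 8.54 FPKM. A further 15 carriers had a sham mean between 10 and 100 FPKM, and 18 tested ones were below 10 FPKM. The 9 untested carriers were at or below 0.17 FPKM in the sham mean and 0.233 FPKM in the TAC mean. They include Slc25a31, the ADP/ATP translocase of male germ cells, the glutamate carrier Slc25a18, the ornithine carrier Slc25a2 and the oxodicarboxylate carrier Slc25a21. Of the others Slc25a41 and Slc25a54 had a count of 0 in all libraries, and Slc25a43, Slc25a48 and Slc25a53 were close to it.

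**Figure D2:**
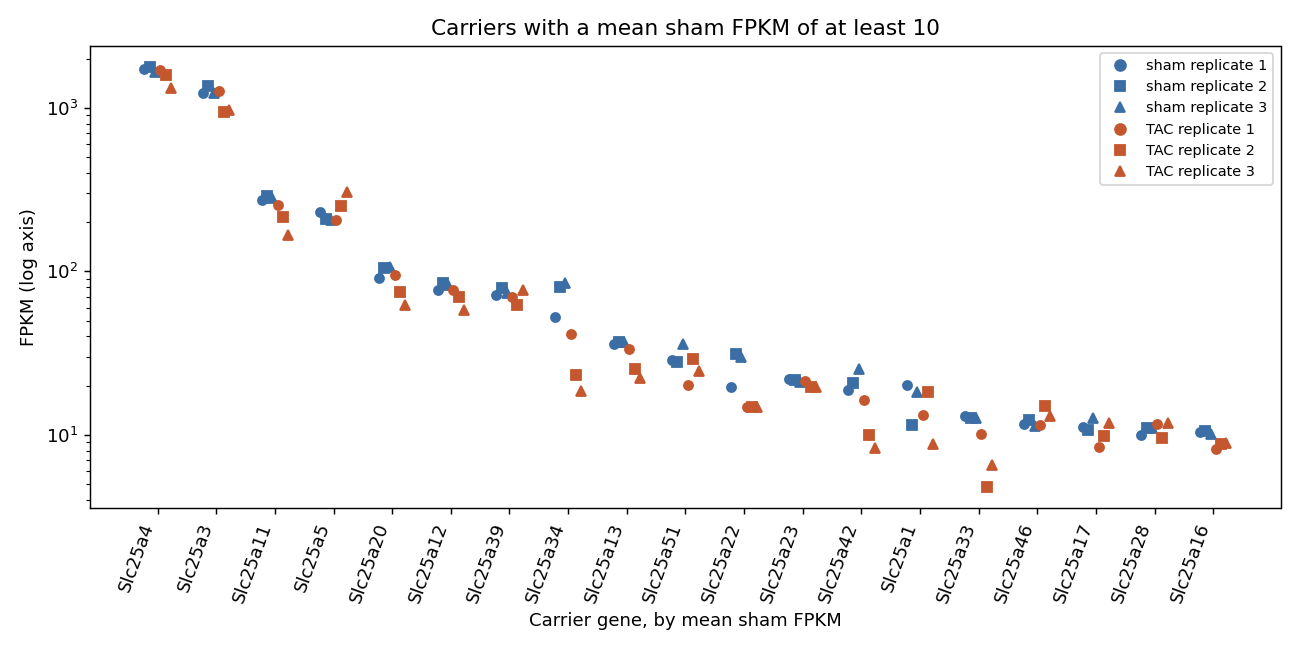
FPKM (vertical log axis) of 19 of the 20 carriers with a sham mean of at least 10 FPKM, ordered by that mean, with one point per library (blue sham, orange TAC, marker shape by replicate number). Slc25a4 and Slc25a3 stand far above the rest in each library, and for Slc25a34, Slc25a42 and Slc25a33 the TAC points spread below the sham points.

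The family's summed FPKM was lower in TAC replicates 2 and 3 than in the other libraries. It was 4048, 4290 and 4056 in sham replicates 1, 2 and 3 and 3986, 3495 and 3224 in TAC replicates 1, 2 and 3. As a share of all FPKM of a library it was 0.643%, 0.682% and 0.667% in sham and 0.606%, 0.533% and 0.509% in TAC, so that the groups did not overlap. Per carrier, the median of log2(CPM + 0.5) relative to the sham mean was -0.02 in TAC replicate 1, -0.20 in TAC replicate 2 and -0.37 in TAC replicate 3. Over all tested genes it was 0.03, 0.00212 and 0.04. TAC replicate 1 was thus near sham in the middle carrier, and of the 3 TAC libraries it was the closest to the sham mean in 26 of 38 carriers, as it was in 55.3% of all tested genes. TAC replicate 1 lay below the lowest sham value in 15 of 38 carriers, replicate 2 in 23 and replicate 3 in 23, beside 28.3%, 38.4% and 36.7% of all tested genes. The same libraries lay above the highest sham value in 8, 9 and 9 carriers, beside 36.0%, 38.8% and 43.2% of all tested genes. Over all genes, too, TAC replicate 1 stood apart from the other TAC libraries: on the first principal component (57.7% of the variance) it was at -1.70, sham ranged from -32.0 to -25.2, and TAC replicates 2 and 3 were at 42.9 and 45.5.

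The summed level of the heart muscle markers was also lowest in TAC replicates 2 and 3. The 8 genes had a sum of 49402 to 50750 CPM in sham and of 50757, 44916 and 35452 CPM in TAC replicates 1, 2 and 3. The largest part of it was Myh6, at 19104.5 to 20273 CPM in sham and 16543, 14267 and 11526 CPM in TAC. Actc1, the next largest, was at 9728 to 11398 CPM in sham and 12136, 11942 and 10032 CPM in TAC. The median of these markers relative to the sham mean was 0.15, -0.15 and -0.56 on the log2 scale in the same 3 libraries. None of the 8 passed the test (edgeR). The log2 fold change was negative in 6 of them and positive in Tnnt2 (0.17, SE 0.16) and Actc1 (0.10, SE 0.15), and the part of these markers in the carrier values was not tested. Lower means were not particular to heart muscle markers. The log2 fold change was negative in 6 of 6 fibroblast, 5 of 6 endothelial and 5 of 6 mural markers. Their medians were -0.25, -0.23 and -0.28, against -0.19 for heart muscle. The libraries differed in another way, however. In TAC replicates 1, 2 and 3 the medians relative to the sham mean were -0.27, -0.26 and -0.59 for fibroblast markers. They were -0.34, -0.24 and -0.25 for endothelial and -0.32, -0.27 and -0.35 for mural markers. TAC replicate 1 was thus below the sham mean in these lists and above it in heart muscle markers. Of these lists only endothelial Tie1 was called lower (-0.63 with SE 0.11, edgeR adjusted p = 0.0414), beside 0.54% of all tested genes. In bulk tissue, fewer heart muscle cells and less RNA per cell cannot be told apart.

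**Figure D3:**
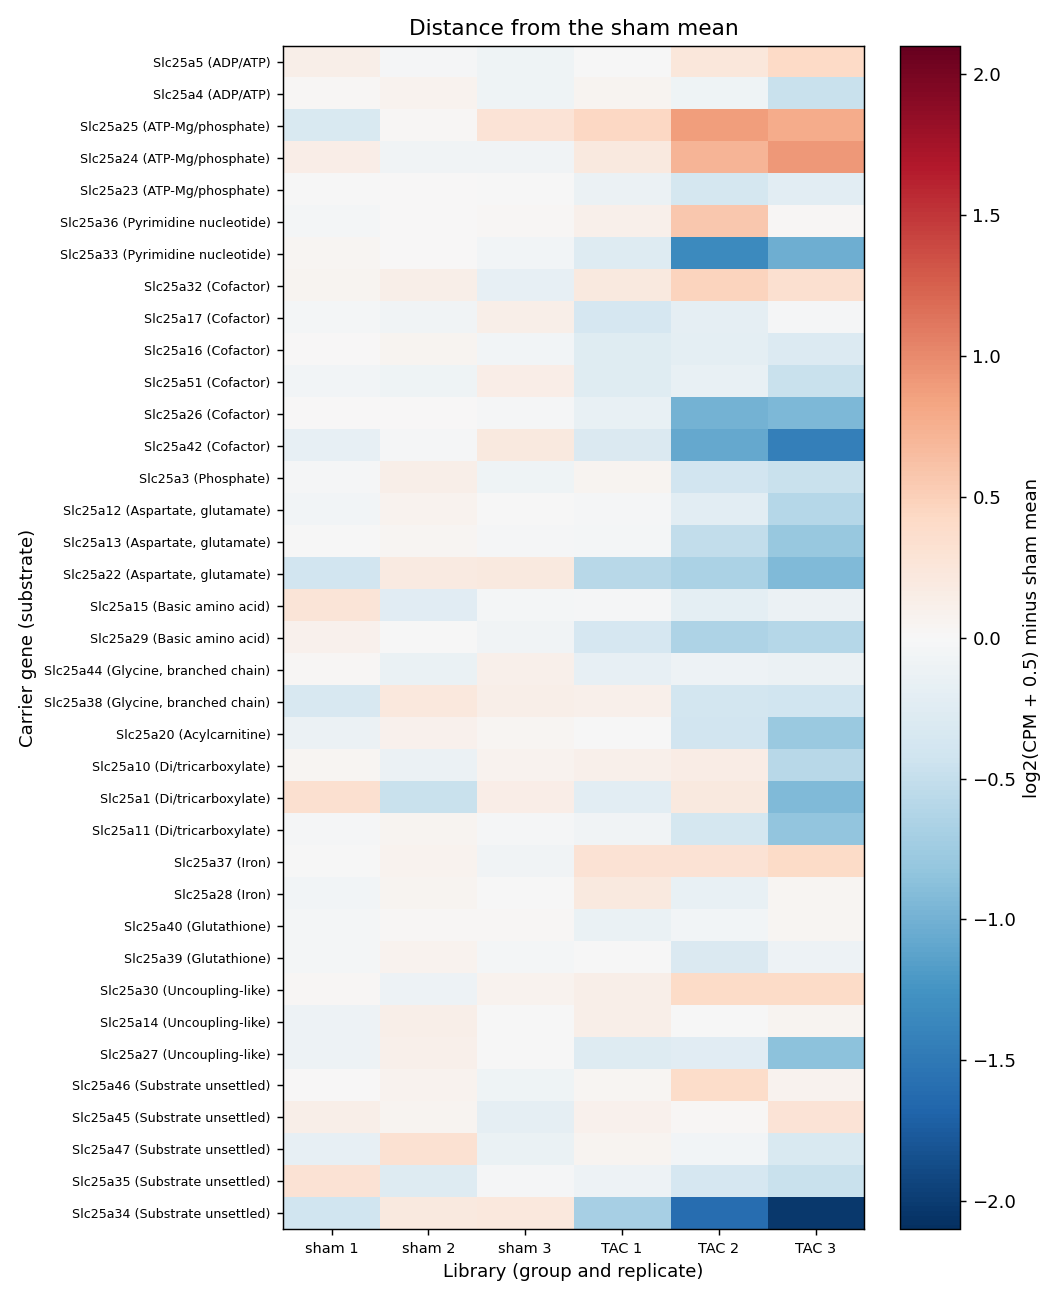
Each row is 1 of 37 tested carriers with its substrate and each column a library, and color gives log2(CPM + 0.5) minus the mean of the sham libraries (blue lower, red higher). The blue cells gather in TAC replicates 2 and 3, down to -2.02 for Slc25a34 in TAC replicate 3, while the TAC replicate 1 column is pale for most carriers.

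Among nucleotide carriers the members went both ways. The 7 tested ones, which are the ADP/ATP, ATP-Mg/phosphate and pyrimidine nucleotide carriers, had 3 negative and 4 positive log2 fold changes (median 0.23). Slc25a4 (ENSMUSG00000031633, chromosome 8, 46206797 to 46211284, minus strand, GRCm38) had 3362, 3474 and 3121 CPM in sham replicates 1, 2 and 3 against 3469, 3105 and 2395 CPM in TAC replicates 1, 2 and 3. The groups overlapped, and TAC replicate 3 alone lay well below sham (a log2 fold change of -0.15 with SE 0.17, edgeR adjusted p = 0.603). Slc25a5 (ENSMUSG00000016319, chromosome X, 36795651 to 36798807, plus strand), which is found in most tissues, had 292, 263 and 251 CPM in sham against 268, 316 and 359.9 CPM in TAC. TAC replicates 2 and 3 were above the sham range and TAC replicate 1 inside it (a log2 fold change of 0.23 with SE 0.15, adjusted p = 0.363).

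The balance of these ADP/ATP translocases therefore differed between libraries. The ratio of Slc25a4 to Slc25a5 FPKM was 7.42, 8.52 and 8.02 in sham and 8.34, 6.33 and 4.29 in TAC. It was lower than in any sham library in TAC replicates 2 and 3 and within the sham range in TAC replicate 1. Their summed FPKM was 1956, 1989.8 and 1872 in sham and 1921, 1842 and 1627 in TAC.

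**Figure D4:**
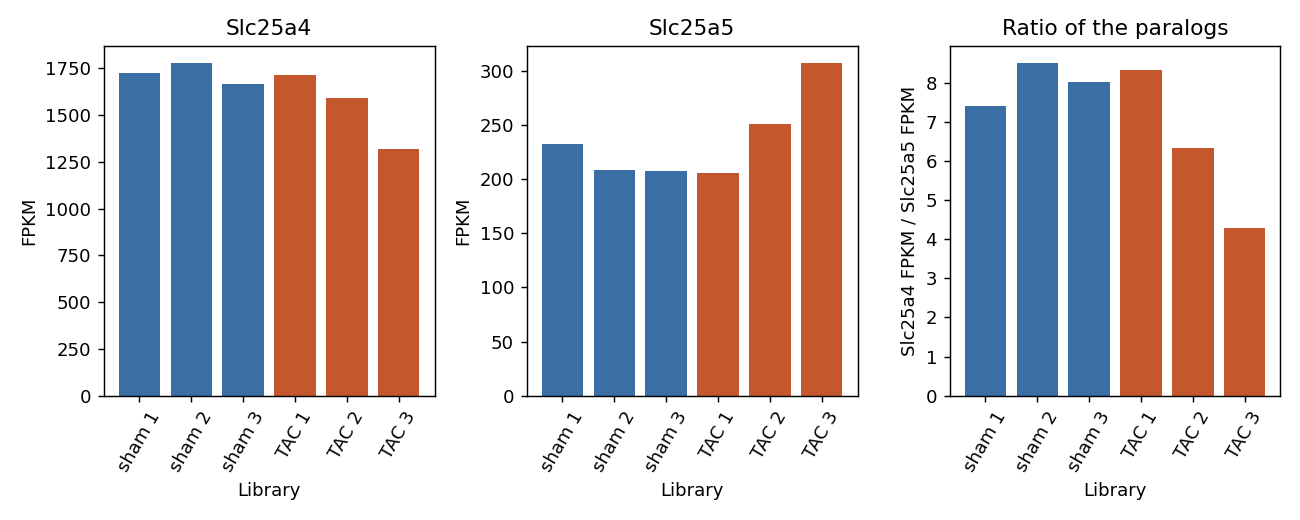
FPKM of Slc25a4 (left) and Slc25a5 (middle) and the ratio of the first to the second (right) in each library, as bars from 0 (blue sham, orange TAC). In TAC replicate 3 the Slc25a4 bar is the lowest and the Slc25a5 bar the highest, and the ratio there is 4.29.

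Slc25a24 and Slc25a25, which exchange ATP-Mg for phosphate across the inner membrane and are switched by calcium, had the highest fold changes of the family. Slc25a24 (ENSMUSG00000040322, chromosome 3, 109123149 to 109168457, plus strand) had 13.7, 11.7 and 11.8 CPM in sham against 14.3, 20.6 and 23.7 CPM in TAC. TAC replicate 1 was just above the highest sham value and the other TAC libraries were well above it (a log2 fold change of 0.66 with SE 0.20, edgeR adjusted p = 0.0934). Slc25a25 (ENSMUSG00000026819, chromosome 2, 32414487 to 32451445, minus strand) had 7.65, 9.82 and 11.9 CPM in sham against 13.2, 18.1 and 16.9 CPM in TAC. Here too no TAC value lay within the sham range (a log2 fold change of 0.71 with SE 0.20, adjusted p = 0.0837). Its counts were partly fractional and Naif1 overlaps it on the opposite strand, so some reads may belong to another gene. The related Slc25a23 (overlapped by Crb3), the most abundant of the 3 per length, was on the other side, at 55.3 ± 0.135 CPM in sham against 47.1 ± 4.15 CPM in TAC (SD, n = 3 each). Its log2 fold change was -0.23 with SE 0.11 (edgeR adjusted p = 0.223).

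The marker sums of white blood cells were higher in the TAC libraries too. Of 6 macrophage markers 3 were called higher (Cd68, Mrc1 and Ccr2), beside 1.12% of all tested genes, and none was at 0. Their summed level was 159 to 188 CPM in sham against 236, 399 and 332 CPM in TAC replicates 1, 2 and 3. Of 6 neutrophil markers S100a8 and S100a9 were called higher, and none was at 0. Both were low in sham, S100a8 at 0.184 to 1.39 CPM and S100a9 at 0.478 to 2.46 CPM. The sum of the neutrophil markers was 6.18 to 13.1 CPM in sham against 26.8, 116 and 151 CPM in TAC. Their part in the values of Slc25a24 and Slc25a25 was not tested.

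The pyrimidine nucleotide carriers differed from each other. Slc25a33 (ENSMUSG00000028982, chromosome 4, 149744036 to 149774277, minus strand) had 25.1, 24.4 and 23.3 CPM in sham against 20.1, 9.25 and 11.6 CPM in TAC. TAC replicates 2 and 3 were at less than 50% of the sham mean, and TAC replicate 1 was just under the sham range (a log2 fold change of -0.83 with SE 0.26, edgeR adjusted p = 0.103). Slc25a36 had 28.6, 29.8 and 30.2 CPM in sham against 31.9, 44.1 and 30.03 CPM in TAC, and TAC replicate 2 was well above the sham range and TAC replicate 1 just above it (a log2 fold change of 0.26 with SE 0.16, adjusted p = 0.337).

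The phosphate and acylcarnitine carriers were below the sham range in TAC replicates 2 and 3 alone. Slc25a3 (ENSMUSG00000061904, chromosome 10, 91116574 to 91124059, minus strand), which brings in the phosphate for ATP synthesis, had 1688, 1865 and 1621 CPM in sham against 1799, 1305 and 1249 CPM in TAC (a log2 fold change of -0.25 with SE 0.18, edgeR adjusted p = 0.402). Slc25a20 (ENSMUSG00000032602, chromosome 9, 108662088 to 108684641, plus strand), which carries long-chain fatty acids into the matrix as acylcarnitines, had 164, 190.1 and 184 CPM in sham against 177, 135 and 104 CPM in TAC. TAC replicate 1 lay inside the sham range for both genes, and the other TAC libraries lay below it (Slc25a20 a log2 fold change of -0.37 with SE 0.19, adjusted p = 0.262). Without TAC replicate 1 both passed, at log2 fold changes of -0.45 for Slc25a3 (adjusted p = 0.0472) and -0.60 for Slc25a20 (adjusted p = 0.0355), where 10% of tested genes were called lower.

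Amino acid carriers all had negative log2 fold changes, 7 of 7 tested (median -0.27), and none passed. Slc25a22 (ENSMUSG00000019082, chromosome 7, 141429744 to 141437892, minus strand), a glutamate carrier, had the largest difference. It stood at 41.6, 63.0 and 63.6 CPM in sham against 36.8, 34.7 and 28.9 CPM in TAC. The TAC values were close together and below sham, but sham replicate 1 was nearer to TAC than to the other sham libraries (a log2 fold change of -0.75 with SE 0.18, edgeR adjusted p = 0.0703). Slc25a29, a carrier of basic amino acids, had 10.9, 10.2 and 9.74 CPM in sham against 7.94, 6.38 and 6.59 CPM in TAC. The groups were apart and each was narrow (a log2 fold change of -0.56 with SE 0.16, adjusted p = 0.0846).

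Slc25a12 and Slc25a13, which encode aralar and citrin, exchange aspartate for glutamate in the malate-aspartate shuttle that brings reducing equivalents into mitochondria. Slc25a13 (ENSMUSG00000015112, chromosome 6, 6041218 to 6217173, minus strand) had 112, 116 and 111 CPM in sham against 109, 78.6 and 65.0 CPM in TAC (a log2 fold change of -0.42 with SE 0.18, edgeR adjusted p = 0.194). Slc25a12, at a higher FPKM in each library, had 236, 259.7 and 244 CPM in sham against 243, 211 and 162 CPM in TAC (a log2 fold change of -0.27 with SE 0.17, adjusted p = 0.340). TAC replicate 1 lay inside the sham range for Slc25a12 and just under it for Slc25a13, whose groups did not overlap. The ratio of Slc25a12 to Slc25a13 FPKM was 2.15 to 2.30 in sham and 2.27, 2.76 and 2.59 in TAC. The ornithine carrier Slc25a15, the glycine carrier Slc25a38 and the branched-chain amino acid carrier Slc25a44 had log2 fold changes of -0.14, -0.24 and -0.13, with overlapping groups.

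Of the di- and tricarboxylate carriers, Slc25a11 had no overlap between groups. It exchanges oxoglutarate for malate in the malate-aspartate shuttle. Slc25a11 (ENSMUSG00000014606, chromosome 11, 70644196 to 70647479, minus strand, overlapped by Rnf167 on the opposite strand) had 470.5, 497 and 468 CPM in sham against 454, 370.2 and 268 CPM in TAC. Each TAC value was under the sham range, by the least in replicate 1 and the most in replicate 3 (a log2 fold change of -0.39 with SE 0.19, edgeR adjusted p = 0.242). The citrate carrier Slc25a1 ranged from 19.3 to 34.1 CPM in sham and from 13.9 to 31.04 CPM in TAC. Its spread within groups exceeded the difference between them (a log2 fold change of -0.28 with SE 0.31, adjusted p = 0.580). The dicarboxylate carrier Slc25a10 was at 19.1 ± 1.46 CPM in sham against 18.2 ± 4.85 CPM in TAC (SD, n = 3 each), also overlapping.

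Of the 7 cofactor carriers 6 had a negative log2 fold change (median -0.29), and none passed. Slc25a42 (ENSMUSG00000002346, chromosome 8, 70184340 to 70212305, minus strand), which brings coenzyme A into the matrix, had 60.6, 67.0 and 78.5 CPM in sham against 55.1, 32.1 and 25.0 CPM in TAC. TAC replicate 1 was just under the sham range and TAC replicates 2 and 3 were at less than 50% of the sham mean (a log2 fold change of -0.88 with SE 0.27, edgeR adjusted p = 0.0994). Slc25a26, the carrier of the methyl donor S-adenosylmethionine, had 17.9, 17.9 and 17.5 CPM in sham against 15.9, 8.73 and 9.02 CPM in TAC (a log2 fold change of -0.66 with SE 0.23, adjusted p = 0.127). Slc25a26 is overlapped by Lrig1 on the opposite strand, and the counts of Slc25a42 were partly fractional. The sham values of Slc25a26 were almost the same, and the TAC libraries split in the same way as for Slc25a42.

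The other cofactor carriers had smaller differences. Slc25a51, which carries NAD into the matrix, was at 87.2 ± 7.96 CPM in sham and at 71.1 ± 7.46 CPM in TAC (SD, n = 3 each). Slc25a16, a carrier linked to coenzyme A, was at 32.4 ± 1.31 and 27.2 ± 0.798 CPM. In Slc25a51 and Slc25a16 all 3 TAC libraries, replicate 1 included, were below sham in CPM. The peroxisomal Slc25a17 was at 19.7 ± 1.49 CPM in sham against 17.2 ± 2.02 CPM in TAC, with overlap. The exception in direction was Slc25a32, linked to folate and FAD transport, at 10.1 ± 1.07 CPM in sham against 12.9 ± 1.19 CPM in TAC (a log2 fold change of 0.35 with SE 0.15, edgeR adjusted p = 0.187). In FPKM the groups of Slc25a32 overlapped, at 3.06 ± 0.401 in sham and 3.31 ± 1.16 in TAC.

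Of the iron and glutathione carriers, only mitoferrin 1 had separate groups. Slc25a37 (ENSMUSG00000034248, chromosome 14, 69241848 to 69285112, minus strand), the mitoferrin that red cell precursors use for heme synthesis, had 12.2, 12.9 and 11.6 CPM in sham against 15.2, 15.1 and 16.2 CPM in TAC. The TAC libraries were close together, with replicate 1 as high as replicate 2 (a log2 fold change of 0.34 with SE 0.12, edgeR adjusted p = 0.130). Mitoferrin 2, Slc25a28, was at 16.0 ± 0.643 and 16.3 ± 2.06 CPM (SD, n = 3 each). The glutathione carriers Slc25a39 and Slc25a40 stood at log2 fold changes of -0.14 (SE 0.12) and -0.05 (SE 0.15), and their groups overlapped.

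The sum of red cell markers was higher in TAC beside Slc25a37. Of the 6 tested genes of this list (Hba-a1, Hba-a2, Hbb-bs, Hbb-bt, Alas2 and Slc4a1), Alas2 and Slc4a1 were called higher, beside 1.12% of all tested genes. Their summed level was 938 to 1634 CPM in sham against 3485, 1926 and 2335 CPM in TAC replicates 1, 2 and 3. Their part in the value of Slc25a37 was not tested. Its counts were partly fractional and several antisense transcripts overlap it.

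Slc25a34 had the largest difference of the family. It is a carrier whose substrate is not settled. Slc25a34 (ENSMUSG00000040740, chromosome 4, 141618824 to 141623821, minus strand) had 142, 219 and 221 CPM in sham against 117, 62.7 and 46.5 CPM in TAC. Each TAC value was below each sham value, TAC replicate 1 was close to sham replicate 1, and TAC replicates 2 and 3 were at less than 50% of the sham mean (a log2 fold change of -1.37 with SE 0.33, edgeR adjusted p = 0.0684). With 72.8 ± 17.6 FPKM in sham and 27.7 ± 12.2 FPKM in TAC (SD, n = 3 each) it was the eighth most abundant carrier of sham hearts. Slc25a46, an outer membrane member tied to mitochondrial shape, was at 50.5 ± 2.96 and 57.2 ± 7.72 CPM, a log2 fold change of 0.18 with SE 0.13.

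Of the carriers that resemble the uncoupling proteins, Slc25a30 had 15.4, 14.1 and 15.8 CPM in sham against 16.5, 20.1 and 20.1 CPM in TAC, without overlap (a log2 fold change of 0.32 with SE 0.14, edgeR adjusted p = 0.182). Slc25a14 was at 1.88 ± 0.203 and 1.97 ± 0.105 CPM (SD, n = 3 each), with overlap. Slc25a27, also at a low level, went the other way, without overlap. It had 1.44, 1.73 and 1.57 CPM in sham against 1.22, 1.26 and 0.64 CPM in TAC. Its log2 fold change was -0.60 with SE 0.35 (edgeR adjusted p = 0.309).

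**Figure D5:**
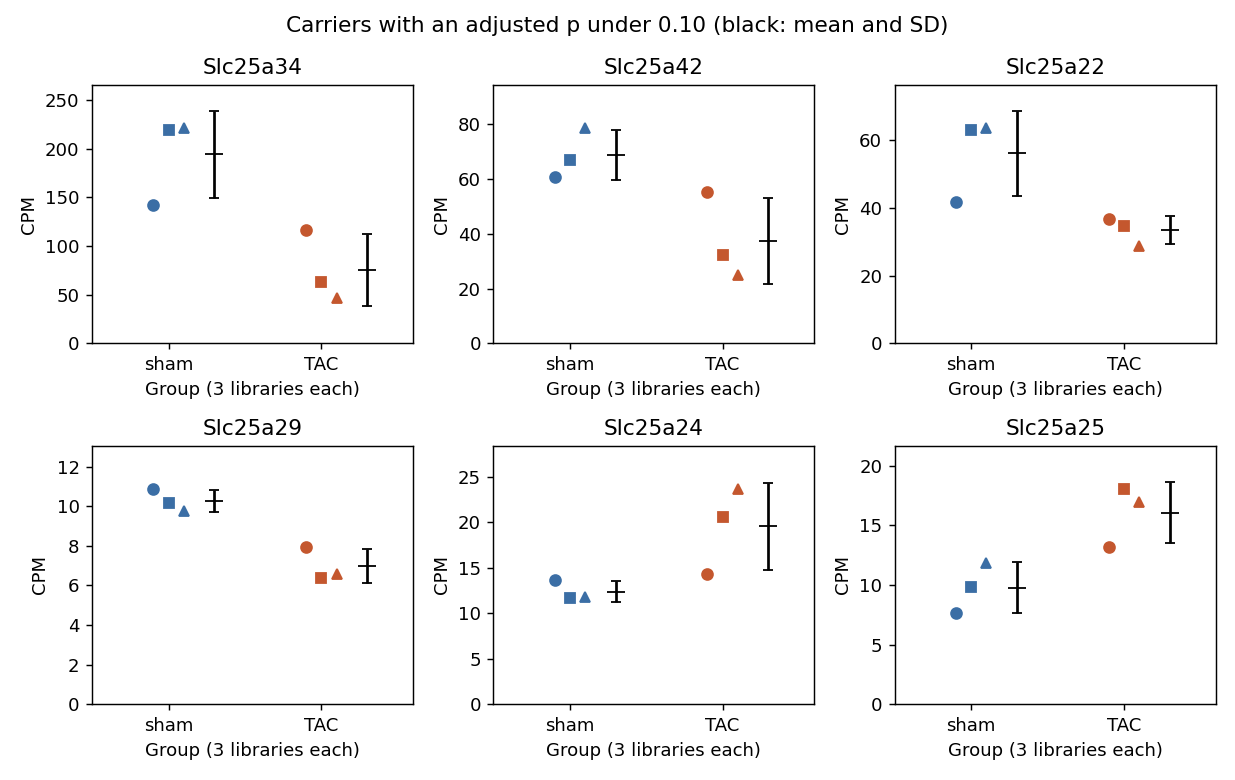
CPM in each library (colored points, blue sham and orange TAC, circle, square and triangle for replicates 1, 2 and 3) with group mean and SD (black) for the 6 carriers with an edgeR adjusted p under 0.10, on axes from 0. TAC replicate 1 is the TAC library nearest to sham in each panel, and no TAC point of these carriers lies within the range of the sham points.

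At an adjusted p under 0.10 there were 2 higher carriers, Slc25a24 and Slc25a25, and 4 lower ones, Slc25a22, Slc25a29, Slc25a34 and Slc25a42, beside 8.25% and 3.49% of all tested genes. DESeq2's Wald test, at an adjusted p under 0.05, called the same 6 and also Slc25a33 lower, beside 7.26% of all genes higher and 4.06% lower. Limma-voom called none. Without TAC replicate 1, edgeR called 3 carriers higher and 11 lower, beside 13.2% and 10% of all tested genes. The 3 were Slc25a24, Slc25a25 and Slc25a30, and the 11 included Slc25a3, Slc25a11, Slc25a13, Slc25a20, Slc25a22, Slc25a26, Slc25a29, Slc25a33, Slc25a34 and Slc25a42. Without any other single library edgeR called none.

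The start-site sequences of 3 carriers with an adjusted p under 0.10 are shown, the orphan carrier and an amino acid carrier with lower values and a nucleotide carrier with higher ones, so that they can be compared. RefSeq (GRCm38.p6) gave start windows for 36 of the 47 members. Each sequence is the 250 bases before the annotated start, in the direction of transcription, at chr4:141623835-141624084 on the minus strand for Slc25a34, chr12:108835877-108836126 on the minus strand for Slc25a29 and chr3:109122899-109123148 on the plus strand for Slc25a24. Capitals mark matches, on either strand, to the GC box GGGCGG, the CCAAT box CCAAT, the nuclear receptor half-site AAGGTCA, the E-box CACGTG and the TATA box TATAAA.
Slc25a34: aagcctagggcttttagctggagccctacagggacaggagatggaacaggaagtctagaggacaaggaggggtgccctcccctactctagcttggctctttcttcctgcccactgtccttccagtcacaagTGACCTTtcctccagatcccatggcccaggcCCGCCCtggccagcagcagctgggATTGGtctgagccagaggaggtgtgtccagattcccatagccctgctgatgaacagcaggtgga
Slc25a29: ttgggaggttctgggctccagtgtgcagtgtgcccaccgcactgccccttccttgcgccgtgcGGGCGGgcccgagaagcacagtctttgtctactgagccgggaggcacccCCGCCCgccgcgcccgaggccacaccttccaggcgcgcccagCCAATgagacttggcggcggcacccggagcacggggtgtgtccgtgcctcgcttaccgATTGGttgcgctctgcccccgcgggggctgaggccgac
Slc25a24: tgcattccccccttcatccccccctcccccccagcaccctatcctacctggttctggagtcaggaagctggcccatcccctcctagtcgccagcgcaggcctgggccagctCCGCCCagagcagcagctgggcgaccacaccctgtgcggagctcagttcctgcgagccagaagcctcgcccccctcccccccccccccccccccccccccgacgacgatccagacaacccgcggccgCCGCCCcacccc

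Slc25a34 held 1 GC box, 1 CCAAT box and 1 half-site, each in reverse orientation. Slc25a29 held 2 GC boxes and 2 CCAAT boxes, 1 of each in reverse orientation, and Slc25a24 held 2 GC boxes, both in reverse orientation. The Slc25a29 window runs into Slc25a47, a carrier on the opposite strand that begins at 108836046. Its GC box at -187 lies inside Slc25a47. At the other end 7 bases of this window lie inside the GENCODE gene of Slc25a29. The half-site stood in 1 of 46 carrier start windows, that of Slc25a34, and in 4.08% of all 32851 RefSeq windows. A GC box stood in 32 of the 46 and in 32.7% of all windows, a CCAAT box in 21 and 33.8%, an E-box in 8 and 6.02% and a TATA box in 2 and 12.4%. These are letter matches and show no binding.

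Genes that work beside the carriers were compared in the same fit, from a list of 57 set by role. None was higher and none lower at an adjusted p under 0.05 (edgeR), beside 1.12% and 0.54% of all tested genes. At an unadjusted p under 0.05, 4 were higher and 7 lower, beside 16.3% and 9.26% of all tested genes. DESeq2 called 2 higher and 4 lower, beside 7.26% and 4.06%. Without TAC replicate 1, edgeR called 4 higher and 24 lower, 9 of the latter ATP synthase genes, beside 13.2% and 10% of all tested genes. The median log2 fold change of the list was -0.24. The ATP synthase genes, which use what Slc25a4 and Slc25a3 bring in, were negative in 15 of 15 (median -0.28), with Atp5b at -0.31 (SE 0.18). The carnitine shuttle genes that work with Slc25a20 were negative in 5 of 5 (median -0.53). Among them Cpt1b, the muscle form of the outer membrane carnitine palmitoyltransferase, was at -0.32 (SE 0.20).

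Other companions gave a similar or a mixed picture. Of the 4 enzymes of the malate-aspartate shuttle, 3 were negative, with cytosolic malate dehydrogenase Mdh1 at -0.35 (SE 0.22). The voltage-dependent anion channel gene Vdac1, the main route through the outer membrane, was at -0.37 (SE 0.16), the pyruvate carrier subunit Mpc1 at -0.19 (SE 0.18) and mitochondrial creatine kinase Ckmt2 at -0.42 (SE 0.20). The 13 import genes that place carriers into the inner membrane were split, 7 positive and 6 negative (median 0.02), with the chaperone Timm8b at -0.24 (SE 0.11). The calcium uniporter genes were split too, 4 positive and 2 negative, with the regulator Smdt1 at -0.22 (SE 0.17). In family members that carry other names, 5 of 5 were negative, among them the uncoupling protein gene Ucp2 at -0.05 (SE 0.14).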

How the data were processed

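Hearts were sampled in 3 sham and 3 TAC libraries, grouped by the sample titles. Per the file headers, the deposited table holds estimated counts and FPKM per gene. The build GRCm38 and the tools HISAT2, Bowtie2 2.2.8, DESeq2 and StringTie 1.3.1 are named per the submitters' processing notes. Their roles, the annotation and any use of strand are not stated, so reads of overlapping genes cannot be told apart. Totals ranged from 19747265 to 27549838 estimated counts, and the authors' FPKM summed to between 608505 and 657783 per library. Symbols and coordinates came from GENCODE M21 (22255 of 22298 identifiers matched).

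Estimated counts were rounded and tested in R 4.3.3 with edgeR 4.0.16 (TMM factors, the filterByExpr minimum at 10 counts, glmQLFit and glmQLFTest, two-sided, Benjamini-Hochberg over 13708 genes, threshold 0.05), TAC against sham without covariates. CPM use TMM-scaled library sizes, and the standard error is the log2 fold change divided by the square root of F, an approximation. Per-library log2 differences use a pseudocount of 0.5 CPM. FPKM levels are the deposited values, and limma-trend on them (limma 3.58.1) used log2(FPKM + 1). DESeq2 1.42.0 was an alternative, run without the filter.

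The members and lists were chosen with earlier results of these data known, so no list was tested. Some members of the lists are counted but not reported here by name. Substrates were assigned from textbook knowledge. Named by rule were any called carrier, the tested members of the ADP/ATP, phosphate, acylcarnitine, aspartate-glutamate, ATP-Mg/phosphate, carboxylate, cofactor, iron and glutathione groups, the 2 most abundant of each other group and the most abundant companion gene per role. Slc25a27, Slc25a45, Slc25a47, Ucp1, Ucp3, Slc22a5, Cpt1a, Cpt2, Mcub, Micu3 and Ckm were named after their values were seen. The same holds for the single values given of the markers Myh6, Tnnt2, Actc1, Fabp4, Adipoq and Cfd. Cell type markers that were called were named by rule.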

Additional observations from a re-analysis of the deposited data

How the results depend on the processing

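The median log2 fold change of the carriers stayed negative under each alternative run, from -0.28 without TAC replicate 1 to -0.13 on log2(FPKM + 1), and -0.16 without TAC replicate 3. With 1 library left out in turn, counts ranged from 0 to 3 carriers higher, 0 to 11 lower and 0 to 28 companion genes called (4 higher and 24 lower, beside 13.2% and 10% of all tested genes), each highest without TAC replicate 1 and 0 without any other library. DESeq2's Wald test called 2 carriers higher, 5 lower and 6 companion genes, beside 7.26% of all genes higher and 4.06% lower. An adjusted p under 0.10 (edgeR), added after seeing the data, gave 2, 4 and 3, beside 8.25% of all tested genes higher and 3.49% lower. The 3 companion genes were Mcub and Micu3, higher, and Cpt1a, lower. DESeq2 size factors, upper-quartile factors, removal of the 13 mitochondrially encoded genes, limma-voom, limma-trend on FPKM, no filter and a minimum count of 100 gave 0 calls. Some fold changes near 0 turned sign. Slc25a45 was at -0.0073 on FPKM. With 1 library left out in turn, Slc25a10 ranged from -0.23 (without TAC replicate 2) to 0.12 (without TAC replicate 3), Slc25a14 from -0.027 (without sham replicate 1) to 0.13, Slc25a28 from -0.078 (without TAC replicate 1; -0.02 without sham replicate 1) to 0.092, and Slc25a47 from -0.28 to 0.051 (without sham replicate 2). The cause of these shifts was not tested.

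The labels do not say whether the replicate numbers pair the libraries. Same-numbered libraries deviated from their group means with correlations of -0.03, -0.10 and -0.03. With 3 libraries per group these values cannot show whether same-numbered libraries were handled together. With the replicate number as a block, 0 carriers were higher, 0 lower, 0 companion genes were called and the median was -0.22.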

Other observations

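Some companion genes of the calcium uniporter and the carnitine shuttle are given here, picked after their values were seen. Differences were not confined to these roles, and genes of import and of phosphate transfer also had groups without overlap. Mcub, which encodes an inhibitory subunit of the uniporter, had 3.13, 3.97 and 3.05 CPM in sham replicates 1, 2 and 3 against 4.68, 6.55 and 10.9 CPM in TAC replicates 1, 2 and 3 (a log2 fold change of 1.12 with SE 0.32, edgeR adjusted p = 0.0860). Micu3, a calcium-sensing regulator of the uniporter, had 3.90, 2.32 and 2.17 CPM in sham against 4.40, 5.77 and 5.66 CPM in TAC (a log2 fold change of 0.92 with SE 0.27, adjusted p = 0.0947). In both genes the groups did not overlap. Of all tested genes, 18.4% were higher and 13.1% lower in TAC without overlap. Cpt2, the inner membrane carnitine palmitoyltransferase next to Slc25a20, had 263, 265 and 286 CPM in sham against 229, 112 and 118 CPM in TAC, also without overlap (a log2 fold change of -0.83 with SE 0.27, adjusted p = 0.108). DESeq2's Wald test called Mcub and Micu3 higher and Cpt2, Cpt1a, Slc22a5 and Ckm lower, beside 7.26% and 4.06% of all genes.

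Of the uncoupling proteins, family members under other names, Ucp1 and Ucp3 varied widely within both groups. Ucp3, the muscle form, had 45.5, 107 and 114 CPM in sham against 49.0, 20.3 and 10.8 CPM in TAC, so that TAC replicate 1 and sham replicate 1 were alike (a log2 fold change of -1.73 with SE 0.54, edgeR adjusted p = 0.102). Ucp1, the brown fat form, had 126, 24.9 and 101 CPM in sham against 6.60, 40.1 and 1.15 CPM in TAC. The adipocyte list, which includes Ucp1 and has no gene at 0, summed to 598 to 1089 CPM in sham and to 711, 853 and 491 CPM in TAC. Most of that sum is Fabp4, which was at 442 to 637 CPM. The list's median relative to the sham mean, on the log2 scale, was -0.045, -1.09 and 0.77 in sham and 0.013, 0.016 and -3.48 in TAC replicates 1, 2 and 3. The fat cell genes Adipoq and Cfd were at 1.66 and 6.42 CPM in TAC replicate 3, against 11.5 to 62.4 and 42.2 to 253 CPM in sham. The list's part in the Ucp1 values was not tested.

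Count and FPKM of the same carrier do not always give the same comparison. Dividing each deposited count by the matching FPKM and the library total gives the gene length the FPKM assumed. Over 37 carriers with an FPKM of at least 1, that length differed by more than 1.2 times between libraries in 5, among them Slc25a32, Slc25a51, Slc25a23 and Slc25a45. For Slc25a32 it was 3332, 3144 and 3466 bases in sham and 4432, 2989 and 4932 bases in TAC. For Slc25a51 it was 3423 bases in TAC replicate 1 and 2641 to 2895 bases in the other libraries. For Slc25a4 and Slc25a34 it was the same in all libraries to within 1 base.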
